A study of Mus musculus with 12 samples.

Results

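The abundance of 9 transcripts of thyroid hormone signalling was examined in the mouse hypothalamus. They were the deiodinases Dio2 and Dio3, the nuclear receptors Thra and Thrb, the transporters Slco1c1 and Slc16a10, the releasing hormone gene Trh with its receptor Trhr, and the hormone-responsive gene Hr. They were 9 of the 43280 gene rows of the deposited count table and were matched by symbol. The group was chosen by the genes' place in the thyroid axis and with their differences between the groups of these same libraries already known. Their differences are therefore given as a description. No p-value is given for a single gene of the 9, only how many passed a threshold.

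The samples were hypothalami of 12 male C57/Bl6 mouse pups on postnatal day 6, with 6 in the Control group and 6 in the MMS group. MMS stands for modified maternal separation, a model of early life stress in which a pup is taken from the nest each day and turned onto its back whenever it rights itself. In the study, males of each litter were divided between the groups, so pups of both shared a dam, a cage and a sex. The tissue was frozen directly after the last session. For sequencing, 6 samples of each group were picked at random, so the libraries of both groups need not come from the same litters. The labels do not give the litter of a library. The tests treated the pups as independent, so the p-values take no account of litters that the groups may share.

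Most thyroid hormone reaches the brain as the prohormone T4 and is carried across cell membranes by transporter proteins. Dio2 turns T4 into the active hormone T3, in the hypothalamus mainly within tanycytes, the glia that line the floor of the third ventricle. Dio3 inactivates both hormones, and T3 acts through the nuclear receptors Thra and Thrb. Neurons of the paraventricular nucleus release TRH, the product of Trh, which drives the pituitary to secrete thyrotropin and so the thyroid to secrete hormone.

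The upstream sequences of Dio2, Dio3 and Trh are shown because these genes encode the activating enzyme, the inactivating enzyme and the hormone at the head of the axis. Each is the 250 bases before the start of the gene in RefSeq, mouse assembly GRCm38.p6, in the direction of transcription. The GENCODE coordinates given further on place the start at the same base for Trh, 162 bases further upstream for Dio3 and 600 bases further downstream for Dio2, so that part of the Dio3 window lies within the GENCODE gene.
Dio2, chr12:90739039-90739288, minus strand: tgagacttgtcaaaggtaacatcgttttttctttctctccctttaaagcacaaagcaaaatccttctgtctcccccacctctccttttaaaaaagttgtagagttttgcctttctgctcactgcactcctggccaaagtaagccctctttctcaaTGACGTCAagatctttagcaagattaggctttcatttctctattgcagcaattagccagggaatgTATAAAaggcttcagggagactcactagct
Dio3, chr12:110278980-110279229, plus strand: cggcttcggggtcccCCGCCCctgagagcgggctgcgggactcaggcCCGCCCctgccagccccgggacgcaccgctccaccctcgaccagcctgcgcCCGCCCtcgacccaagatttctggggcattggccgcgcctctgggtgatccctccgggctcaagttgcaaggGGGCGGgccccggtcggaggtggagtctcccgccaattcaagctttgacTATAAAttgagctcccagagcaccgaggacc
Trh, chr6:92244651-92244900, minus strand: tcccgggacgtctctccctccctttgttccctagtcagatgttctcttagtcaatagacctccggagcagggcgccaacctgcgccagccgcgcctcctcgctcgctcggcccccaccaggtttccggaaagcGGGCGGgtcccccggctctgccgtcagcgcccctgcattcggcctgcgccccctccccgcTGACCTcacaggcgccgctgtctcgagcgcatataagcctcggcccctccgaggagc

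The capitals mark matches, on either strand, to the TATA box TATAAA, the GC box GGGCGG, the cAMP response element TGACGTCA and the thyroid hormone receptor half-site AGGTCA. The Dio2 window was poor in G and C, with 41.6% against 69.6% for Dio3 and 68.8% for Trh, where the median over 32851 windows of the same length was 52.4%. Both deiodinase windows held a TATA box, 30 bases before the start in Dio2 and 31 in Dio3, as did 12.4% of all windows. Dio2 held the palindromic cAMP response element 95 bases before its start, which 1.55% of all windows held. Dio3 held 4 GC boxes, the nearest 80 bases before its start, and 32.7% of all windows held at least 1. Trh held 1 GC box and, on the opposite strand 57 bases before its start, 1 half-site, which 14% of all windows held. The direct repeat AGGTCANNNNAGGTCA, whose copies of AGGTCA also count as half-sites, was found in 5 windows, or 0.0152%, and in none of those of the 6 genes of the group with a RefSeq window. These matches are letters in a window and say nothing of binding.

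Libraries were made from the 3' end of mRNA. A transcript then gives reads from its end next to the poly(A) tail, so values are given as CPM, counts relative to the scaled library total, and were not divided by length. Library totals ran from 3765759 to 6560620 counts in Control and from 3218777 to 5344080 in MMS. The libraries MMS 2 and MMS 4 stood apart from the rest, at 57.8 and 46.3 on the first principal component (30.4% of the variance) where the other 10 lay between -14.4 and -3.04. The fitted differences of the group are therefore also given without these 2 libraries. Their summed ependymal cilia markers were 23.4 and 32.6 CPM, against 76.6 to 157 in the other MMS libraries and 72.2 to 163 in Control. All 12 hypothalamic markers passed the count filter and summed to 520 to 1075 CPM in Control and 851 to 1311 in MMS. Of 9 pituitary markers 1 passed it, and Pou1f1 and Fshb had no counts in any library. Some pituitary hormone genes were nevertheless high in single libraries, with Cga at up to 23.0 CPM in Control and 14.2 in MMS, and Gh at up to 3.53 and 26.6 CPM, where the lowest library of either group had 0 counts of each. In control library 3 the summed choroid plexus markers reached 1874 CPM, of which Ttr gave 1735, and in the other 11 libraries they lay between 55.4 and 92.1. The part of these cell types in the results was not tested. In bulk tissue, fewer cells of a type and less RNA per cell cannot be told apart.

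The count filter was passed by 8 of the 9 genes, all but Slc16a10. Among the 13104 genes that passed, 0 had an adjusted p under 0.05 in the edgeR quasi-likelihood test with Benjamini-Hochberg adjustment (0%), and 1190 (9.08%) had an unadjusted p under 0.05. DESeq2 called 6 of 23534 genes (0.0255%). Of the 8 genes, 0 were called by edgeR, by DESeq2 or by limma-voom, and 1 had an unadjusted p under 0.05. The groups did not overlap, with MMS the lower, in 34 genes (0.259% of those tested) and in 1 of the 8, Dio3. Since the group was chosen on this contrast, these counts are descriptions. The fitted log2 fold change of MMS against Control was below 0 in 6 of the 8 genes, with a median of -0.09, where the median of all tested genes was 0.0009.

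In Control the order of the mean levels was Thra, Trh, Slco1c1, Trhr, Dio2, Thrb, Hr, Dio3 and Slc16a10. Thra, at 1247 CPM, lay at the 99.6th percentile of the tested genes, and Dio3, at 4.03 CPM, at the 9.07th. The ranges of the control libraries separated Thra from Trh and Dio3 from Slc16a10, and all other neighbours in this order overlapped. Trh was nevertheless above Slco1c1 in 12 of 12 libraries and Hr above Dio3 in 11 of 12, whereas Thrb was above Hr in 5 of 12.

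**Figure D1:**
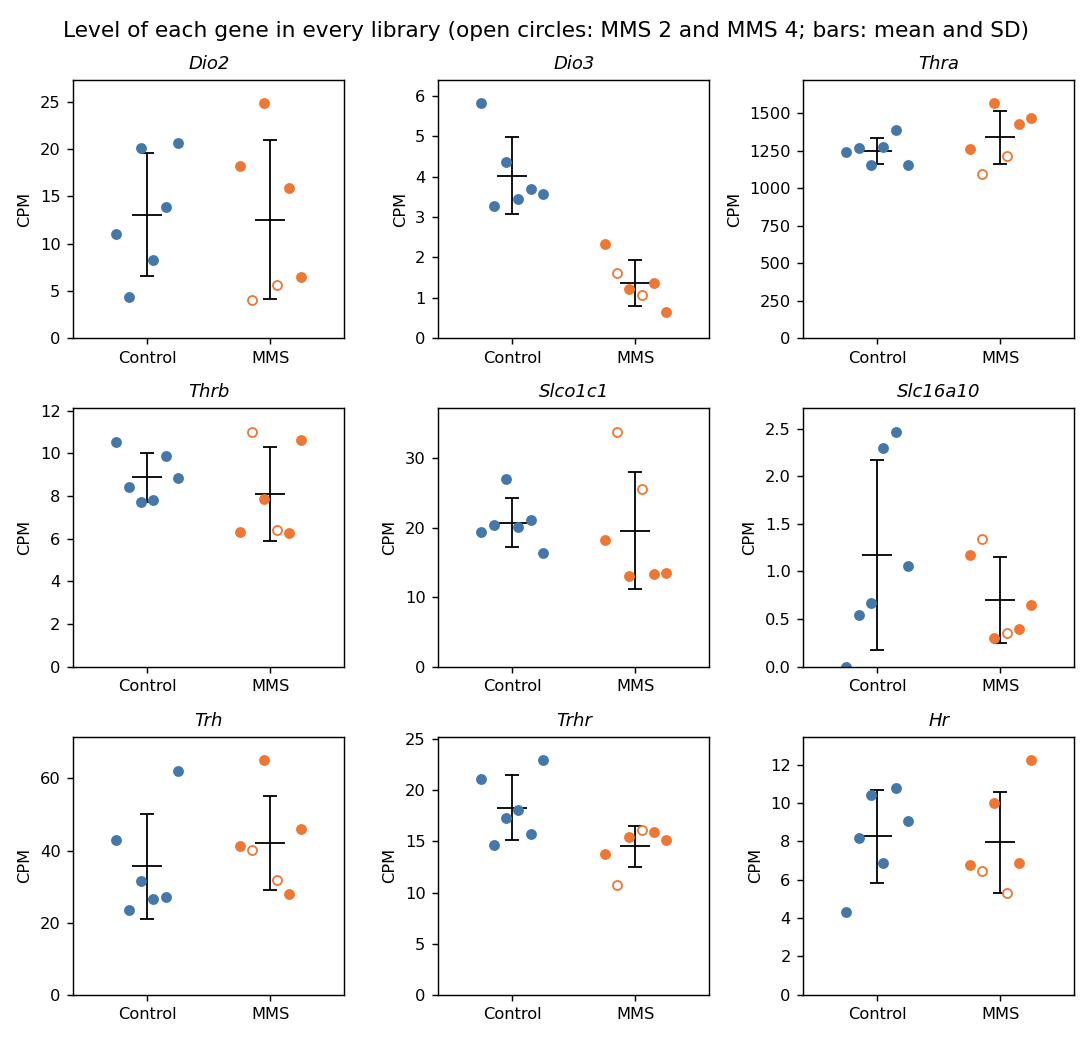
CPM of each of the 9 genes (vertical axes, linear, each gene on its own scale) in the 6 Control and 6 MMS libraries; points are libraries, open circles are MMS 2 and MMS 4, and bars are the mean ± SD (n = 6). Dio3 is the gene whose groups do not overlap, from 3.26 to 5.81 CPM in Control and from 0.644 to 2.34 in MMS.

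Dio3, the inactivating deiodinase (chr12:110279068-110281097 in mm10, plus strand), differed most of the 8 genes fitted. In the control libraries 1 to 6 it was measured at 5.81, 3.26, 4.36, 3.44, 3.70 and 3.58 CPM. In the MMS libraries 1 to 6 it was measured at 2.34, 1.61, 1.21, 1.06, 1.37 and 0.644 CPM. Every MMS library was therefore below every control. The mean was 4.03 ± 0.953 CPM in Control and 1.37 ± 0.574 in MMS (SD, n = 6 per group), with a log2 fold change of -1.52 (SE 0.34), or 2.87-fold lower in MMS. Of the tested genes, 6 had a log2 fold change as low or lower, Dio3 itself included.

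The Dio3 values rested on few counts, 121 over the 6 control libraries and 35 over the 6 MMS libraries, with 12 to 27 and 2 to 10 per library. The coefficient of variation between libraries was 23.7% in Control and 41.8% in MMS, while counting alone would give 22.3% and 41.4%. At this depth a spread between pups in either group was not detectable beyond the counting error. The exact 95% Poisson interval of the lowest control, 1.69 to 5.70 CPM, overlapped that of the highest MMS library, 1.12 to 4.31 CPM, and these intervals cover counting error only. Leaving out single libraries moved the log2 fold change between -1.72 and -1.39, and it was -1.47 (SE 0.42) without MMS 2 and MMS 4.

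Dio2, the activating deiodinase (chr12:90724552-90738438, minus strand), varied more within groups than any other tested gene of the group. Its lowest, median and highest values were 4.35, 12.4 and 20.6 CPM in Control and 4.03, 11.2 and 24.8 CPM in MMS. The groups overlapped almost fully, with means of 13.0 ± 6.51 and 12.5 ± 8.39 CPM (SD, n = 6 per group). The log2 fold change was -0.08 (SE 0.46) over all libraries and 0.31 (SE 0.43) without MMS 2 and MMS 4, which were measured at 4.03 and 5.68 CPM. The biological coefficient of variation fitted to Dio2 was 53.7%, against a median of 19.2% over all tested genes. Thra and Trhr lay below that median, at 14.3% and 17.2%, and the other 6 lay above it.

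The balance of both enzymes within a library was taken as the ratio of Dio2 to Dio3 CPM. The ratio had a lowest, median and highest value of 1.33, 3.08 and 5.76 in Control. It had 2.50, 8.90 and 20.5 in MMS, and 4 of the 6 MMS libraries were above every control. The exceptions were MMS 2 and MMS 4, the libraries that stood apart. Since this ratio holds Dio3, it is not independent of the values above. Dio1, the deiodinase of liver and kidney, had 0 counts in all 12 libraries, which allows up to 3 counts, or 0.0544 CPM.

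**Figure D2:**
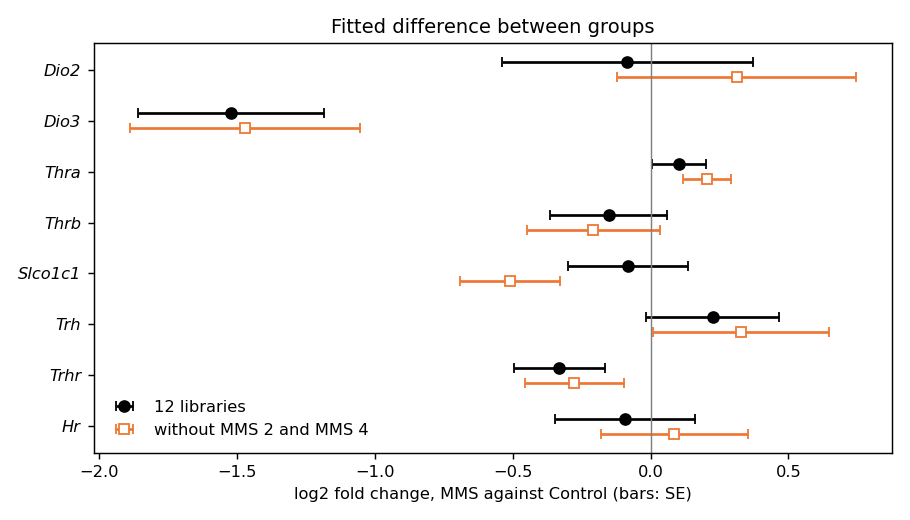
Log2 fold change of MMS against Control (horizontal axis, bars are ± 1 SE) for the 8 genes fitted, over all 12 libraries and without MMS 2 and MMS 4. Dio3 lies at -1.52 and -1.47, whereas the other 7 lie between -0.33 and 0.23 over all libraries.

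Thra, the most abundant receptor gene (chr11:98740638-98769006, plus strand), was measured at 1156, 1253 and 1387 CPM as the lowest, median and highest value in Control. In MMS these values were 1094, 1346 and 1566 CPM. The means were 1247 ± 86.7 and 1340 ± 177 CPM (SD, n = 6 per group), with a log2 fold change of 0.10 (SE 0.10). The 3 highest values of all were MMS libraries and the lowest was MMS 2. Without MMS 2 and MMS 4 the log2 fold change was 0.20 (SE 0.09). The annotated end of Thra shares 1075 bases with the end of Nr1d1, a clock gene on the opposite strand. How the counting treated strand is not given in the sources used here, so the reads of the pair may not be fully separated.

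Thrb (chr14:17660261-18038090, plus strand), the receptor isoform known for feedback control of the axis, was measured at 7.72, 8.64 and 10.5 CPM as the lowest, median and highest value in Control. In MMS it was measured at 6.28, 7.13 and 11.0 CPM. Values in MMS were the more spread, with 3 libraries below and 2 above every control. The means were 8.87 ± 1.14 and 8.08 ± 2.21 CPM, with a log2 fold change of -0.15 (SE 0.21), and -0.21 (SE 0.24) without MMS 2 and MMS 4. The ratio of Thra to Thrb CPM lay between 117 and 164 in Control and between 99.3 and 228 in MMS.

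Slco1c1 encodes OATP1C1, a T4 carrier of brain endothelium and astrocytes (chr6:141524368-141570177, plus strand). In Control it was measured at 16.4, 20.3 and 27.0 CPM as the lowest, median and highest value. In MMS the 2 libraries that stood apart were the highest, MMS 2 at 33.8 CPM and MMS 4 at 25.5 CPM, and the other 4 lay between 13.0 and 18.3 CPM. The means were 20.7 ± 3.47 and 19.6 ± 8.48 CPM (SD, n = 6 per group), and the log2 fold change was -0.08 (SE 0.22). Without MMS 2 and MMS 4 it was -0.51 (SE 0.18), so the value depended on these libraries more than that of any other of the 8 genes. Their summed astrocyte markers were 2835 and 2860 CPM, against 2347 to 2546 in the other MMS libraries. Their summed endothelial markers, 240 and 242 CPM, lay within the range of the other MMS libraries, 192 to 286. These sums concern MMS 2 and MMS 4, and the correlations of Slco1c1 with both marker lists over all libraries, given further on, were ordered the other way. The highest control was library 3, the one with the high choroid plexus markers. The part of these cell types in the Slco1c1 values was not tested.

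Slc16a10, which encodes the T3 and aromatic amino acid carrier MCT10 (chr10:40033532-40142258, minus strand), did not pass the count filter. It had 37 counts over the Control libraries, from 0 to 16 each, and 17 over the MMS libraries, from 1 to 5 each. The means were 1.17 ± 0.997 and 0.701 ± 0.449 CPM (SD, n = 6 per group), and the control library with 0 counts allows up to 0.646 CPM (3 counts). The pooled ratio of MMS to Control was 0.546 with an exact 95% interval from 0.288 to 0.994. This interval covers counting error only. The coefficient of variation of the control libraries, 85.1% where counting alone would give 40.3%, was wider than such an interval assumes, and no difference was detectable at this depth.

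Trh, the releasing hormone precursor (chr6:92242061-92244650, minus strand), was measured at 23.6, 29.3 and 62.1 CPM as the lowest, median and highest value in Control. In MMS it was measured at 28.0, 40.6 and 65.1 CPM. The means were 35.7 ± 14.6 and 42.0 ± 13.1 CPM (SD, n = 6 per group), with a log2 fold change of 0.23 (SE 0.24) and overlapping groups. It was 0.33 (SE 0.32) without MMS 2 and MMS 4 and 0.47 without control library 6, the highest control. Leaving out single libraries gave values from 0.06 upwards.

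Trhr, the TRH receptor (chr15:44196135-44235912, plus strand), was measured at 14.7, 17.7 and 23.0 CPM as the lowest, median and highest value in Control. In MMS it was measured at 10.7, 15.3 and 16.1 CPM. The groups overlapped, with 2 MMS libraries below every control, and the means were 18.3 ± 3.17 and 14.5 ± 2.02 CPM. The log2 fold change was -0.33 (SE 0.16), or -0.28 (SE 0.18) without MMS 2 and MMS 4, and it stayed between -0.38 and -0.25 when single libraries were left out.

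Hr, a nuclear corepressor whose gene responds to thyroid hormone in brain (chr14:70552212-70573548, plus strand), was measured at 4.31, 8.61 and 10.8 CPM as the lowest, median and highest value in Control. In MMS it was measured at 5.32, 6.83 and 12.2 CPM. The groups overlapped, and the means were 8.27 ± 2.42 and 7.94 ± 2.62 CPM (SD, n = 6 per group). The log2 fold change was -0.09 (SE 0.25) and turned to 0.09 (SE 0.27) without MMS 2 and MMS 4.

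Variation within the groups was compared between the genes. Over the 28 pairs of the 8 tested genes, the correlation r of log2 CPM was computed over the 12 libraries after the mean of each group was removed. These points share libraries and depth, and r is given as a description. The strongest pair was Thra with Slco1c1 at -0.80, which was -0.41 without MMS 2 and MMS 4. Trh and Trhr had an r of 0.50, and Dio2 and Dio3 had 0.33.

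The most similar genes over the 12 libraries were sought among 9390 tested genes with a mean of at least 50 counts, by the same r. For Dio2 they were Urod at 0.97, Agrp at 0.94 and Rpl37 at 0.925. Agrp encodes a feeding peptide of arcuate neurons, which lie beside the tanycytes. For Trh they were Pias3 at 0.90, Avp at 0.875 and Rab10os at 0.87, and Avp encodes vasopressin, a peptide of the paraventricular nucleus. For Dio3 they were Thrap3 at 0.93, Clasrp at 0.91 and Trmt1 at 0.90. Each gene named is among the 3 highest of 9390, and such a choice over 12 libraries gives a high r by itself. The spread of Dio3 within groups was not detectable beyond counting error, so its values of r cannot be read as shared variation.

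For the receptors the most similar genes were Ids, Pcdhb7 and Tnpo2 beside Thra, at 0.95 to 0.96, and Ccdc50, Rsbn1l and Poc1b beside Thrb, at 0.795 to 0.867. For Slco1c1 they were Amn1, Capn2 and Eif1ax, at 0.933 to 0.955 over all libraries and 0.709 to 0.822 without MMS 2 and MMS 4. Beside Trhr stood Fgfr1op, Rpl36a-ps1 and Zfp821, at 0.845 to 0.900, and beside Hr stood Asb4, C1galt1c1 and Nptx2, at 0.89 to 0.91.

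Dio2 and Trh varied with markers of the cells that are known to hold them. Dio2 varied with the mean of 11 tanycyte markers, with an r of 0.825 over the 12 libraries and 0.85 without the 2 libraries farthest from the median of that mean. The tanycyte markers summed to 260 to 390 CPM in Control and 253 to 349 in MMS. Trh was related in the same way to 7 markers of the paraventricular nucleus, with an r of 0.78 and 0.73 without the 2 farthest libraries. Hr was related inversely to 7 thalamic markers, with an r of -0.73 and -0.52 without the 2 farthest libraries. Slco1c1 was related inversely to 7 ependymal markers at -0.88 (-0.84 without the 2 farthest libraries), and related to 5 choroid plexus markers at 0.56 (0.80 without the 2 farthest). Without MMS 2 and MMS 4 these values of r were 0.89 for Dio2, 0.77 for Trh, -0.93 for Hr, and -0.42 and 0.79 for Slco1c1. Slco1c1 also had an r of 0.557 with endothelial and 0.277 with astrocyte markers. Without MMS 2 and MMS 4 these were 0.567 and -0.0666. Of the relations not yet named, the strongest over the 12 libraries were those of Thra and Trhr with ependymal markers, at 0.654 and 0.631. Without MMS 2 and MMS 4 they were -0.151 and 0.641. The relations given are a part of the 64 computed and are described without a test. They share libraries and depth.

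**Figure D3:**
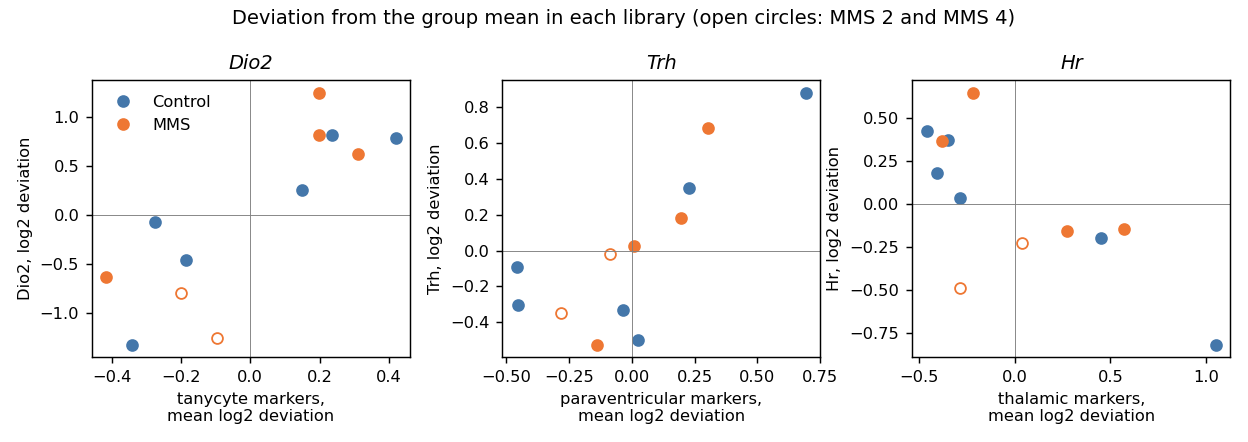
Deviation from the group mean in log2 CPM of Dio2, Trh and Hr (vertical axes) against the mean deviation of tanycyte, paraventricular and thalamic markers (horizontal axes); points are the 12 libraries, open circles MMS 2 and MMS 4. The r values are 0.825, 0.783 and -0.731.

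Besides the 9 genes, 5 lists with 72 genes were described, and 55 of the 72 passed the count filter. The last list holds 10 genes of the chromosomal region of Dio3, and the others hold genes of thyroid hormone action. By edgeR 0 of the 55 had an adjusted p under 0.05, and 8 (14.5%) had an unadjusted p under 0.05, where 9.08% of all tested genes did. The groups did not overlap for 2 of the 55, Trhde and Klf9, both higher in MMS. Among all tested genes 0.13% did not overlap with MMS the higher. The lists were written with earlier results of these data known, so these shares are descriptions.

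Of 12 other carriers and binding proteins, 8 were tested, 1 with a log2 fold change above 0 and 7 below, with a median of -0.16 that became -0.02 without MMS 2 and MMS 4. Crym, a cytosolic T3-binding protein and a tanycyte marker, was measured at 23.2 ± 12.1 CPM in Control and 13.0 ± 7.58 in MMS (SD, n = 6 per group). Its log2 fold change of -0.86 (SE 0.38) had an adjusted p of 0.543 in edgeR. Leaving out single libraries moved it between -1.17, without MMS 3, and -0.53, without control library 5, the highest control. It was -0.58 without MMS 2 and MMS 4. Ttr, the T4-binding protein of the choroid plexus, gave -6.58 on the log2 scale (SE 2.15, adjusted p = 0.543 in edgeR), a value that rested on control library 3, at 1735 CPM, and was -1.63 without it.

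Of 14 further genes of hormone metabolism, TRH processing and the pituitary thyroid axis, 5 were tested, 2 above and 3 below 0, with a median of -0.12 that became -0.02 without MMS 2 and MMS 4. Trhde (chr10:114398823-114802307, minus strand) encodes the ectoenzyme that degrades TRH. In Control it was measured at 4.87, 7.56 and 8.83 CPM as the lowest, median and highest value, and in MMS at 9.13, 13.4 and 18.0 CPM. It was higher in 6 of 6 MMS libraries than in any control, at 7.04 ± 1.58 against 13.1 ± 3.21 CPM, with a log2 fold change of 0.88 (SE 0.21). It did not pass the threshold, with an edgeR adjusted p of 0.385 and a range from 0.124 to 0.899 over the alternative settings. Without MMS 2 and MMS 4 the log2 fold change was 0.70. The processing enzymes Cpe and Pcsk1, which trim peptide precursors, had log2 fold changes of -0.19 and -0.29, and edgeR adjusted p values of 0.620 and 0.649. Without MMS 2 and MMS 4 these differences were -0.05 and -0.02.

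All 16 partners and coregulators of the receptors were tested, 5 above and 11 below 0, with a median of -0.07, or -0.09 without MMS 2 and MMS 4. Rxrb, a retinoid X receptor that pairs with thyroid hormone receptors, stood at -0.22 on the log2 scale (SE 0.11, adjusted p = 0.546 in edgeR). The coactivators Ncoa1 and Ncoa3 had log2 fold changes of 0.24 and -0.29, with edgeR adjusted p values of 0.564 and 0.570. Without MMS 2 and MMS 4 the values of Rxrb, Ncoa1 and Ncoa3 were -0.11, 0.09 and -0.20.

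Of 20 genes known to be induced by T3 in brain or neural cells, 17 were tested, 12 above and 5 below 0, with a median of 0.15 that became 0.03 without MMS 2 and MMS 4. Klf9, a transcription factor gene that responds to thyroid hormone and also to glucocorticoids, was known from earlier results of these data when the list was made. It was measured at 49.8, 62.6 and 72.0 CPM as the lowest, median and highest value in Control and at 74.7, 89.0 and 106 CPM in MMS. Every MMS library was above every control, with means of 60.4 ± 8.60 and 88.8 ± 11.3 CPM. The log2 fold change was 0.56 (SE 0.12), with or without MMS 2 and MMS 4. The adjusted p was 0.340 in edgeR and 0.0357 in DESeq2, the lowest of the alternatives, which ran to 0.714. Rasd2 and Ppargc1a, at 0.55 and 0.40 (edgeR adjusted p = 0.543 for both), were 0.19 and 0.11 without MMS 2 and MMS 4.

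**Figure D4:**
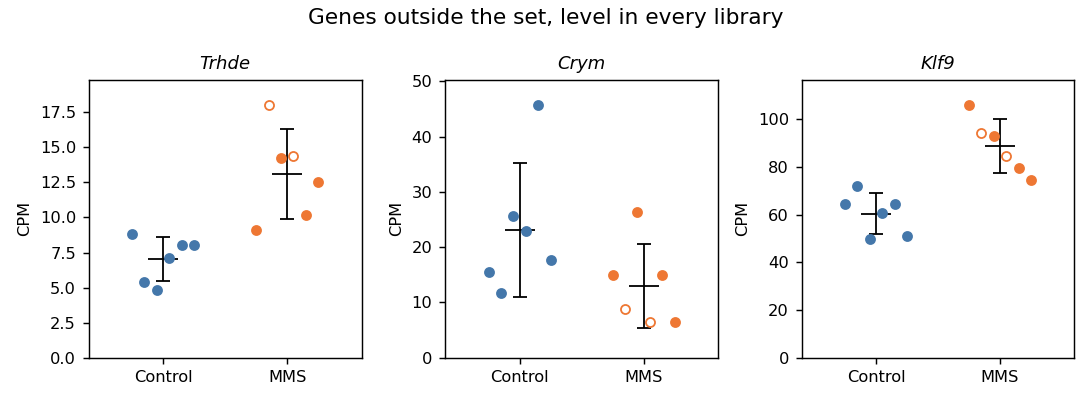
CPM of Trhde, Crym and Klf9 (vertical axes, linear) in the 6 Control and 6 MMS libraries; open circles are MMS 2 and MMS 4, and bars are the mean ± SD (n = 6). Trhde and Klf9 do not overlap between the groups, whereas Crym does.

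Dio3 lies at the far end of the imprinted Dlk1-Dio3 domain of chromosome 12, 816 kb beyond Dlk1. Of 10 genes of this domain and its neighbours, 9 were tested, 4 above and 5 below 0, with a median of -0.13 that became -0.03 without MMS 2 and MMS 4. Dlk1, which encodes a Notch-like membrane protein, had a log2 fold change of -0.25 (edgeR adjusted p = 0.680), or -0.02 without MMS 2 and MMS 4. The non-coding host transcript Mirg had -0.73 (edgeR adjusted p = 0.611), and Ppp2r5c, a phosphatase subunit gene beyond Dio3, had 0.19 (edgeR adjusted p = 0.648), and without MMS 2 and MMS 4 they were -0.45 and 0.08. The non-coding Dio3os, whose start lies 895 bases from that of Dio3 on the opposite strand, had 15 counts in all and was not tested. Whether Dio3 differed from these neighbours was not tested.

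**Figure D5:**
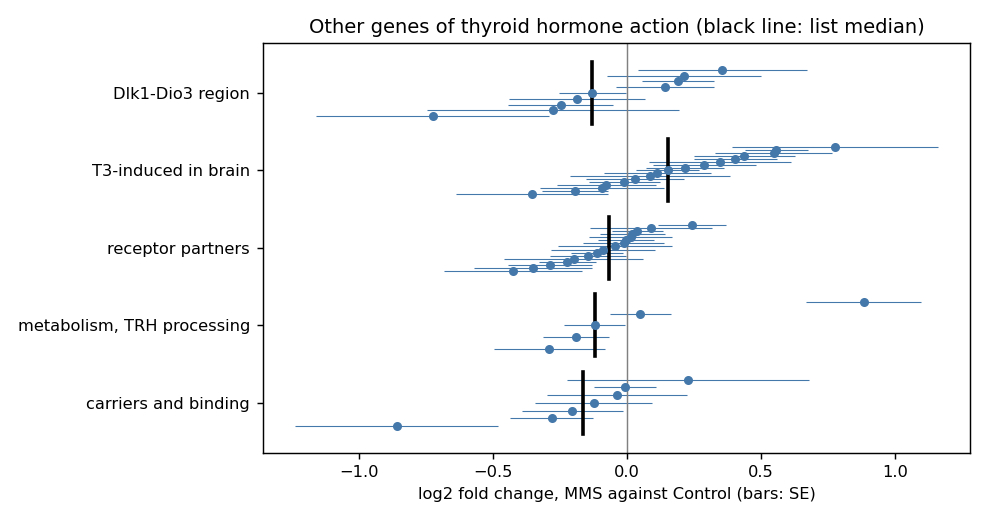
Log2 fold change of MMS against Control for the tested genes of each of the 5 lists, 1 of them the Dlk1-Dio3 region (points, with bars of ± 1 SE). The black line is the list median. Ttr, at -6.58, lies outside the plotted range and is counted in its median; the medians lie between -0.16 and 0.15.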

How the data were processed

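RNA from the postnatal day 6 hypothalamus of 6 Control and 6 MMS pups was made into 3' mRNA libraries with the QuantSeq kit. The authors sequenced them on an Ion Proton, aligned the reads to mm10 in Torrent Suite and deposited raw counts per gene, with no normalization or pooling. Not given in the sources used here were the counting tool, the annotation, and how strand and multiply mapped reads were handled. Their own comparison was made in Galaxy and Degust. In 27 rows, with 0.175% of counts, the symbol had become a calendar date, and these were kept unnamed.

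Groups and replicate numbers came from the sample titles. Over the 30 within-group pairs of libraries, chi-square statistics per degree of freedom, on genes with at least 20 counts, lay between 4.04 and 31.5, so all 12 libraries counted as separate samples. Genes were fitted over the whole table in edgeR 4.0.16 (R 4.3.3) by its robust quasi-likelihood test, with TMM scaling and the default filter (minimum count 10, minimum total 15). Two-sided p-values were Benjamini-Hochberg adjusted over 13104 genes, with a threshold of 0.05. Log2 CPM used a prior count of 2. The step was run on simulated counts with a biological coefficient of variation of 19.7% for every gene and no outlying library. It was thus not checked at a spread such as that of Dio2, or with libraries such as MMS 2 and MMS 4. Alternatives were DESeq2 1.42.0, limma 3.58.1 voom with sample weights, RLE scaling, no count filter, a mean of at least 50 counts, the replicate number as a block, and libraries left out singly or MMS 2 with MMS 4.

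The 9 genes and the gene lists were chosen with earlier results of these data known. Genes named were the 9 and the 3 most correlated with each tested one (mean of at least 50 counts). From each of the 5 lists other than cell type markers came any past the threshold and the 3 with the smallest p. Klf9, Dio3os, Crym, Trhde and Dlk1 were named in any case. A further gene that this rule names is not reported here. Markers went by lists, except genes named for a count of 0 or a level that 1 library decided. Coordinates are 1-based, from GENCODE M21 on mm10. Upstream sequences are from RefSeq on GRCm38.p6, where 6 of the 9 genes had a window and Thra, Trhr and Hr had none. Reads carried no molecular identifiers, so intervals and floors cover counting error only.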

Additional observations from a re-analysis of the deposited data

Results flagged for a closer look

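In groups of 6 libraries, the distance of the highest or lowest value to its nearest neighbour was compared with the range of the group. Over 48 sets of values 1 exceeded Dixon's 95% critical value, where chance gives about 2.4, and 0 of the 18 sets of Dio2, Dio3, Thra, Thrb, Slco1c1, Slc16a10, Trh, Trhr and Hr did. Ttr was measured at 1735 CPM in control library 3, where the next control was at 35.5 CPM and the lowest at 1.09 CPM.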

How the results depend on the processing

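The number of genes with an adjusted p under 0.05 was 0 in edgeR. It was 6 in DESeq2, 1 without the count filter, 5 without MMS 2 and MMS 4, and 0 to 1 when single libraries were left out, and none of the 9 genes was among those called in any of the 19 settings. The number with an unadjusted p under 0.05 was 1190, against 2039 without the count filter, 674 without MMS 2 and MMS 4, and 700 to 1804 when single libraries were left out. Of 282 recomputed values, 271 counted as unchanged. For log2 fold changes this meant a move smaller than the SD between libraries within groups, also where the sign changed. For numbers of genes it meant a ratio to the main number within a fixed limit, which 801 with limma-voom against 1190 still met. Leaving out libraries could not change the sign of Dio3, whose groups did not overlap. The log2 fold changes of Dio3, Thra, Thrb, Trh and Trhr kept their sign in every setting that gave one. That of Dio2 changed sign in 6 settings (-0.38 to 0.10 with single libraries left out), that of Slco1c1 in 4 (-0.29 to 0.03), that of Hr in 3 (-0.25 to 0.01), and the median of the receptor partners in 1, at 0.006. With a mean of at least 50 counts required, Dio3, Thrb and Hr were not fitted. With the replicate number as a block, 1 gene was called and 1224 had an unadjusted p under 0.05, and the log2 fold change was -1.54 for Dio3 and -0.12 for Dio2. Deviations of equal-numbered libraries correlated at -0.05 to 0.12, and 2 of 6 matched their own number best. The labels do not say what the number marks, and whether equal numbers share a litter cannot be told from these values. The low counts of Dio3 and Slc16a10 limit their precision.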
